A study of Rattus norvegicus with 2 samples.

Results

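Tight junction genes were examined in epidermal keratinocytes, the main cell type of the outermost skin layer, grown in culture from newborn rats. The genes are 9 symbols chosen by name as tight junction components, Cldn1, Cldn3, Cldn4, Cldn7, Cldn12, Cldn23, Ocln, Tjp1 and F11r, and all 9 had a named probe among the 15037 named genes of the array. One group, called siTet2/3, was transfected with siRNAs against Tet2 and Tet3 at 1 µM each, and the other is called control. The title of the control sample reads NC+VC, while its cells are labelled as non-treated. Whether a non-targeting siRNA or mock transfection was used for the control is not stated in the labels. Vitamin C was added to both groups 24 h after transfection and left for 12 h, in medium with 10% fetal bovine serum and 0.4 µg/mL hydrocortisone. TET enzymes turn methylcytosine of DNA into oxidised forms, and vitamin C is a known enhancer of them. RNA of each group was hybridised to 1 whole-transcript array. No difference given here therefore has a replicate check, no test was possible, and "higher" and "lower" describe these 2 arrays. The number of arrays limits the precision of every value.

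Tight junctions seal the space between neighbouring epithelial cells. Their strands are built from claudins, membrane proteins that either tighten the seal or form ion-selective pores, together with occludin and its relatives. Scaffold proteins such as ZO-1, encoded by Tjp1, bind the tails of claudins through PDZ domains and tie the strands to the actin cytoskeleton. JAM-A, encoded by F11r, is an adhesion protein of the immunoglobulin superfamily that recruits polarity proteins to the contact. In the epidermis functional tight junctions lie in the granular layer, and mice that lack claudin-1 lose water through the skin and die soon after birth.

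The array as a whole is described in ranges only. Deposited log2 signals ran from 1.36 to 19.93. The column medians were 4.90 on the siTet2/3 array and 4.85 on the control array, and the sorted columns lay within 0.151 log2 units of each other, so a difference in total RNA per cell could not show. A background floor of 5.04 log2 units was taken from 1206 chemoreceptor genes, and 8103 named genes lay above it on at least 1 array. All 8 keratinocyte markers with a named probe were above the floor. Of them 0 differed by 1.5-fold, beside 13.2% lower and 8.63% higher over all genes above the floor. Among the markers were Krt14 (18.70 on the siTet2/3 array and 18.54 on the control array) and Tp63 (12.75 on the siTet2/3 array, 13.15 on the control array). The largest difference of the 8 markers was that of Krt1, at -0.45, with both values under the stricter floor described below. None of 8 fibroblast markers passed the floor, and their summed signal was 7.02 log2 units on the siTet2/3 array and 6.86 on the control array. Of the other lists, 1 of 5 melanocyte markers, 1 of 7 endothelial markers and 1 of 6 immune markers passed. Those that passed were Mitf (5.41 on the siTet2/3 array, 5.33 on the control array), Tek (9.25 on the siTet2/3 array, 9.66 on the control array, above the stricter floor described below too) and Cd68 (5.24 on the siTet2/3 array, 5.52 on the control array). Mitf and Cd68 were under that stricter floor on both arrays. The remaining markers of these lists, Tyr, Pecam1, Cdh5 and Ptprc among them, were below the floor on both arrays. Among 6 markers of simple epithelium and Merkel cells 2 passed, Krt19 and Isl1, while Krt8, Krt18, Krt20 and Atoh1 were below the floor. Krt19 had 6.24 on the siTet2/3 array and 5.54 on the control array, a 1.62-fold higher signal. Isl1 had 7.20 on the siTet2/3 array and 6.70 on the control array. Both genes were under the stricter floor on both arrays. Of these 2, 1 was thus at least 1.5-fold higher, beside 8.63% over all genes above the floor. The summed signal of the 6 markers was 8.17 log2 units on the siTet2/3 array and 7.68 on the control array, and its part in the differences below was not tested. The knockdown itself was not analysed here, since Tet1, Tet2 and Tet3 are not among the named probes.

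Because the siRNAs were directed at enzymes that act on methylated CpG sites, the CpG content of the members' promoter windows is shown first, as a feature that did not enter the choice of genes. DNA methylation was not measured in the table used here. RefSeq promoter windows of GRCr8, from 250 bases before to 50 bases after the listed start, were found for 7 of the 9 members, all but Cldn4 and Cldn23. The windows below belong to Cldn1, a main sealing claudin of the epidermis, to Cldn3, whose gene is the neighbour of Cldn4, and to Cldn7, a claudin whose signal was below the floor. Every CpG is in capitals, and each sequence runs 5′ to 3′ on the strand of its gene.
Cldn1 (chr11:87926126-87926425, plus strand): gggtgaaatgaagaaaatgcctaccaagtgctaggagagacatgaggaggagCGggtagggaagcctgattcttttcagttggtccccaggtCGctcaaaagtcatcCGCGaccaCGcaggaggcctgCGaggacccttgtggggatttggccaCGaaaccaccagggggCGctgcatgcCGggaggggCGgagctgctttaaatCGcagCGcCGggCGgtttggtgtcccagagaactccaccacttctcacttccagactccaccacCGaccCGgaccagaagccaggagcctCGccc
Cldn3 (chr12:27346498-27346797, minus strand): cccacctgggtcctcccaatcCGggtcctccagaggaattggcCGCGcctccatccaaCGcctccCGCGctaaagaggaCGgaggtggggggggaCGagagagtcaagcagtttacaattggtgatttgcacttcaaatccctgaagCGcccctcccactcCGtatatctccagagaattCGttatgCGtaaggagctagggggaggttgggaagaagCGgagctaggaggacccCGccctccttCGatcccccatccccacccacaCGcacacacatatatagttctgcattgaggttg
Cldn7 (chr10:55188420-55188719, plus strand): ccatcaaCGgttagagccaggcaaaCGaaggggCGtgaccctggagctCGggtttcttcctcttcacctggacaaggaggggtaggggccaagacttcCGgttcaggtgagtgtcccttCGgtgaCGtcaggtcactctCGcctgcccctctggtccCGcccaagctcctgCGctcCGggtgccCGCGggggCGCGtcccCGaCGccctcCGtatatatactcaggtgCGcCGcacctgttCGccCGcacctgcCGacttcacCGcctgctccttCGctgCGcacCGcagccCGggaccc

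The 3 windows hold 17 CpGs (Cldn1), 16 CpGs (Cldn3) and 28 CpGs (Cldn7), against a median of 22 over 6839 windows of genes above the floor, whose middle 50% lay between 14 and 29. The window of F11r holds 23 CpGs and that of Ocln 21. The windows of Tjp1 and Cldn12 hold 2 and 1. Those of Tjp1, Cldn12 and Ocln start inside the annotated span of their genes, so they describe 1 listed start and not necessarily the start these cells use, which was not measured, and those of Tjp1 and Cldn12 may not be promoters at all. The differences in log2 units, siTet2/3 minus control and described below, were 0.83 for Tjp1, 0.23 for Cldn12 and -0.19 for Ocln. For the genes above the floor whose windows lie at the outer end of the gene, they were 0.18 (Cldn1), 0.28 (Cldn3) and -0.05 (F11r). As the windows of Tjp1 and Cldn12 may not be promoters, their low CpG counts cannot be set against these differences. With 7 genes and 1 array a group, no relation of CpG count to the differences was computed.

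**Figure D1:**
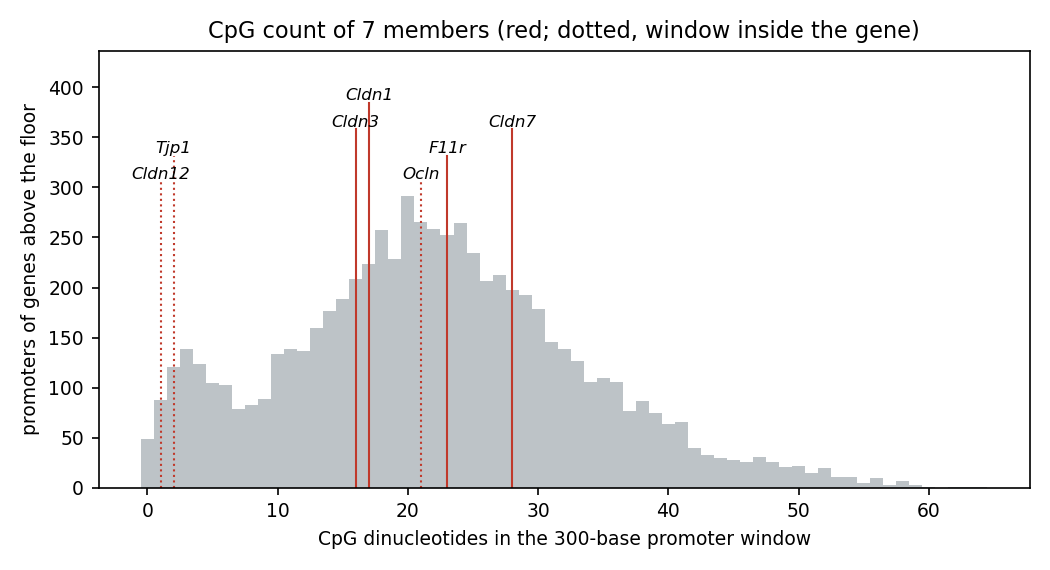
Number of CpG dinucleotides per 300-base promoter window (horizontal axis) over 6839 genes above the floor (grey bars, number of promoters), with 7 tight junction genes as red lines, dotted where the window starts inside the gene. Cldn3, Cldn1, Ocln, F11r and Cldn7 sit between 16 and 28 CpGs, within the bulk of genes, and Cldn12 and Tjp1 at 1 and 2.

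Motifs of factors known to act on epithelial junction genes were searched on both strands of the 7 windows. The E-box CAGGTG, bound by the repressors of the Snail family, occurs at 5 places in the window of Cldn7, at 2 in that of Ocln and at 1 each in those of Cldn3 and F11r. It is absent from the windows of Cldn1, Cldn12 and Tjp1 (the windows of Cldn12 and Tjp1 may not be promoters), and 18.7% of all 27457 promoter windows hold it. The GC box GGGCGG, bound by SP factors, is in 4 of the 7 windows, those of Cldn1, Cldn3, Cldn7 and F11r, in 34.9% of all windows and in 64.0% of those of genes above the floor. The AP-1 site TGANTCA is in the window of F11r and in 7.33% of all windows. The Grainyhead-like site AACCGGTT is in 0 of the 7 and in 0.164% of all windows. No motif of the 4 contains another. A match describes letters in a window and is no evidence that the factor binds there.

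The differences of the tight junction members were of both signs. Of the 9 members, 8 were above the floor, on both arrays in each case, and the exception was Cldn7. Among these 8, Cldn4 was at least 1.5-fold lower on the siTet2/3 array, Tjp1 was at least 1.5-fold higher, and 6 were neither. Over all 8103 genes, 13.2% passed 1.5-fold downwards and 8.63% upwards on the siTet2/3 array. With 1 of 8 members in each direction (12.5%), the members' share was near that background and is not a result about tight junction genes as a group. Their median difference, siTet2/3 minus control, was 0.12 log2 units, beside -0.05 over all genes above the floor. The 6 members that were neither ran from -0.19 to 0.28. The members' counts were also 1 lower and 1 higher after centring on the median difference, where the background was 11.1% and 10.4%, and once a trend with signal level was taken out, where it was 11.2% and 10.2%. At 2-fold the members' counts were 0 and 0 of 8, beside 3.05% and 1.81%. In such bulk RNA, fewer cells of a kind and less RNA per cell cannot be told apart.

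**Figure D2:**
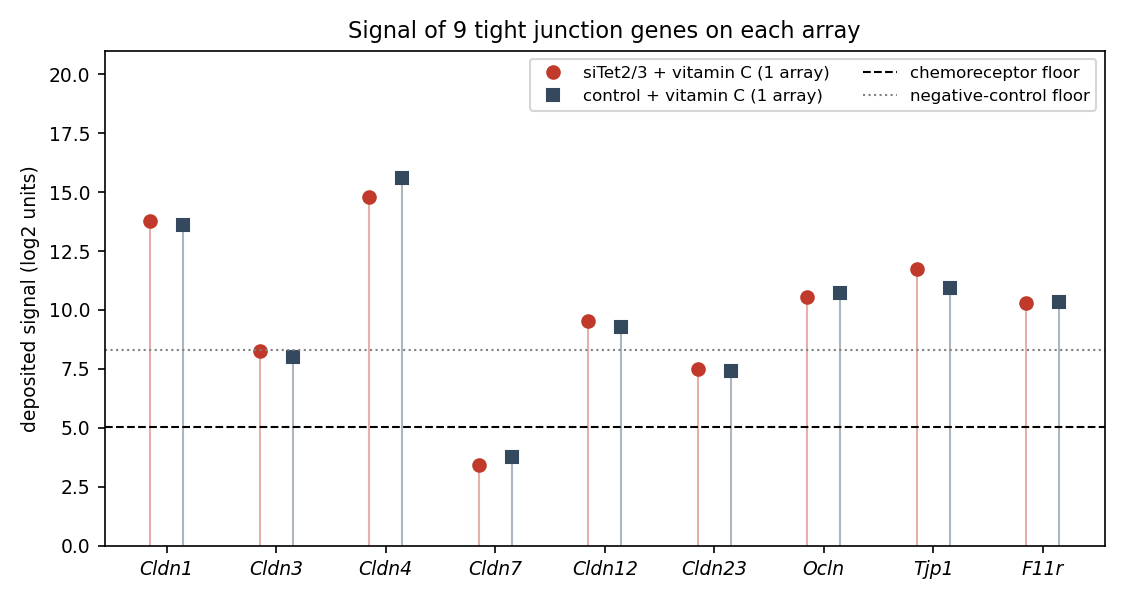
Deposited signal in log2 units (vertical axis) of the 9 genes on the siTet2/3 array (red circles) and the control array (dark squares), 1 array each, with the chemoreceptor floor of 5.04 dashed and the negative-control floor of 8.31 dotted. The points of Cldn4 and Tjp1 are at least 1.5-fold apart, in opposite directions, and both points of Cldn7 are below the dashed line; levels of different genes are not comparable, because each probe set has its own response.

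Claudins were taken first. Cldn4, a claudin of the upper epidermal layers that also serves as a receptor for a clostridial enterotoxin, had a signal of 14.80 log2 units on the siTet2/3 array and 15.61 on the control array. The difference, siTet2/3 minus control, was -0.81, a 1.75-fold lower signal. Of the 8103 genes above the floor, 489 (6.03%) had a still lower difference. The 200 genes on each side of Cldn4 in signal level had a robust SD of differences of 0.307, so the difference was -2.64 of these SDs; that scatter comes from other genes on the same 2 arrays and does not replace replicates.

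Cldn3 is a close relative of Cldn4 and its neighbour on chromosome 12 in GRCr8, with 2 pseudogenes and no protein-coding gene listed between them. Its signal was 8.28 on the siTet2/3 array and 8.01 on the control array, a difference of 0.28. That was 0.636 of the robust SD of genes of like level (0.435), so the sign of the Cldn3 difference is within the scatter. The differences of the neighbours lay 1.09 log2 units apart. Both values of Cldn3 were under a stricter floor of 8.31 log2 units, taken from the negative-control probes, so its level is less certain than that of Cldn4. Abhd11, on the other side of Cldn3, read 6.33 on the siTet2/3 array and 6.52 on the control array, both under the stricter floor. Mettl27, on the other side of Cldn4, was below the chemoreceptor floor on both arrays.

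Cldn1, the claudin that mice need for the water barrier of the skin, had a signal of 13.78 on the siTet2/3 array and 13.61 on the control array. The difference of 0.18 was 0.534 of the SD of genes of like level (0.333). Its signal was thus nearly the same on both arrays, unlike that of Cldn4. Cldn12, a claudin that lacks the PDZ-binding tail of most of its relatives, had 9.52 on the siTet2/3 array and 9.29 on the control array, a difference of 0.23. Cldn23 had 7.49 on the siTet2/3 array and 7.43 on the control array, a difference of 0.06, and like Cldn3 it lay below the negative-control floor on both. Cldn7 had 3.42 on the siTet2/3 array and 3.75 on the control array, both under the chemoreceptor floor, so no fold is given for it.

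The remaining members belong to other protein families. Tjp1, which encodes the scaffold ZO-1, had a signal of 11.75 on the siTet2/3 array and 10.93 on the control array. It was 1.77-fold higher, a difference of 0.83, and 291 genes above the floor (3.59%) had a still higher one. The difference was 2.32 of the robust SDs of genes of like level, which was 0.356. The next protein-coding gene listed on one side of Tjp1, Nsmce3, went the other way, with 6.03 on the siTet2/3 array and 6.74 on the control array. On the other side the nearest with a named probe, Tm2d3, went the same way as Tjp1. It had 6.07 on the siTet2/3 array and 5.34 on the control array. Nsmce3 and Tm2d3 were below the negative-control floor on both arrays.

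Ocln, which encodes occludin, a tetraspan protein of the strands, had 10.54 on the siTet2/3 array and 10.74 on the control array, a difference of -0.19. F11r, the gene of JAM-A, had 10.29 on the siTet2/3 array and 10.34 on the control array, a difference of -0.05. Both differences were small beside the scatter of genes of like level, whose robust SDs were 0.377 for Ocln and 0.421 for F11r. Centring on the median difference of all genes moved F11r to 0.00, so its sign carries no information.

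**Figure D3:**
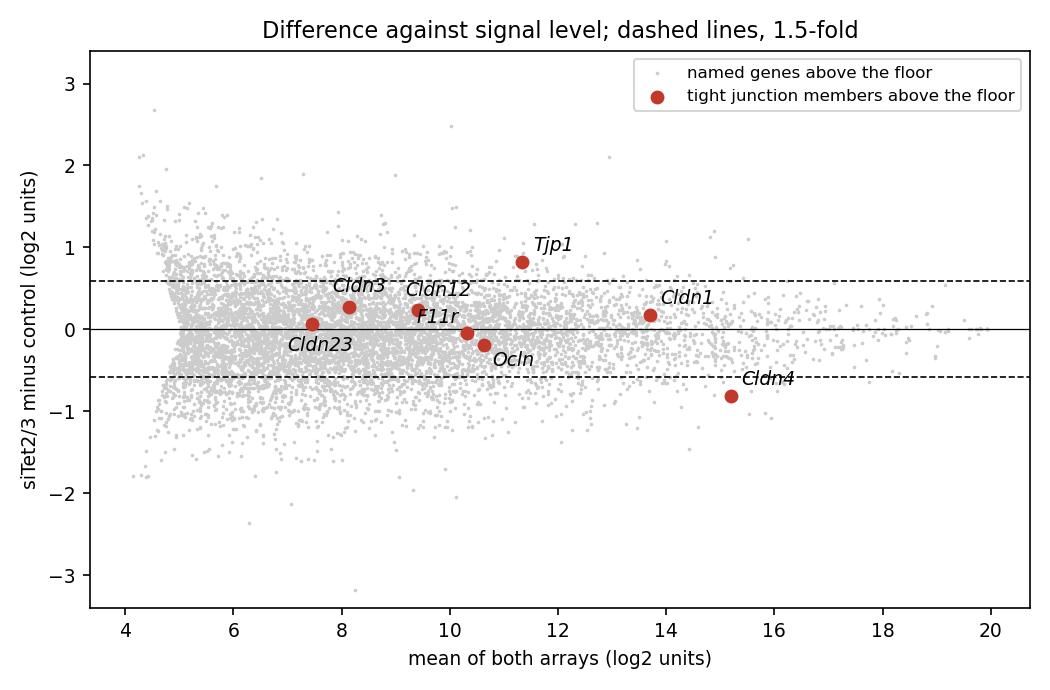
Difference, siTet2/3 minus control, in log2 units (vertical axis) against the mean signal of both arrays (horizontal axis) for 8103 named genes above the floor (grey) and the 8 tight junction genes above it (red); dashed lines mark 1.5-fold. Tjp1 at 0.83 and Cldn4 at -0.81 lie outside the lines near the edges of the cloud, and the other 6 lie between -0.19 and 0.28 within it.

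The wider tight junction list of other claudins, membrane proteins, scaffolds and regulators had 81 further symbols, of which 67 had a named probe and 35 were above the floor. Of these 35, 4 were at least 1.5-fold lower as measured (11.4%, beside the 13.2% over all genes) and 3 at least 1.5-fold higher (8.57%, beside 8.63%), and the median difference was 0.02. Once values below the floor were set to the floor, the counts were 3 and 3, beside 11.8% and 6.96% over all genes, since 1 of the lower genes, Tjp3, had its siTet2/3 value below the floor. As for the 9 members, the shares were near the background.

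Among 21 other claudin and claudin-domain genes with a named probe only 3 passed the floor: Cldn17, with 10.90 on the siTet2/3 array and 11.22 on the control array, Cldn8, barely above it with 5.24 on the siTet2/3 array and 5.12 on the control array, and Cldnd1. Cldnd1, which encodes a claudin-domain membrane protein, was 1.57-fold lower (13.66 on the siTet2/3 array and 14.31 on the control array). Only Cldnd1 of these 3 passed 1.5-fold, beside 13.2% lower and 8.63% higher over all genes. The remaining genes of this list, among them the pore-forming Cldn2 and the endothelial Cldn5, were below the floor on both arrays.

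Of the other membrane proteins 5 of 12 passed the floor. Among these 5, 1 was at least 1.5-fold lower and 1 higher, beside 13.2% lower and 8.63% higher over all genes. Lsr, which encodes angulin-1, a protein that brings tricellulin to the corners where several cells meet, was 1.69-fold lower (9.21 on the siTet2/3 array and 9.97 on the control array). The gene of tricellulin itself, Marveld2, had 7.96 on the siTet2/3 array and 8.14 on the control array, both below the negative-control floor. Epcam, whose protein binds claudin-7, was 1.78-fold higher, at 6.52 on the siTet2/3 array and 5.68 on the control array, below the negative-control floor on both.

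Of 12 plaque and polarity scaffold genes above the floor, 9 were neither 1.5-fold higher nor lower as measured. The count was 1 lower and 2 higher, beside 13.2% lower and 8.63% higher over all genes. Pals1, which encodes a scaffold of the Crumbs polarity complex, was 1.59-fold higher, a difference of 0.67 log2 units from 10.33 on the control array. Cgnl1, the gene of the ZO-1 partner paracingulin, was 1.67-fold higher (6.80 on the siTet2/3 array, 6.06 on the control array). Both Cgnl1 values were below the negative-control floor. Tjp3, a relative of Tjp1 that encodes ZO-3, was lower at 4.43 on the siTet2/3 array and 5.19 on the control array, past 1.5-fold as measured. As its siTet2/3 value was below the floor, the decrease is only bounded, at 1.11-fold or more. Pard3, a polarity protein gene whose product binds JAM-A, differed by 0.17.

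Of 15 regulators above the floor only Arhgap17, a GTPase-activating protein gene that acts on Cdc42 at junctions, passed 1.5-fold, with a 1.70-fold lower signal (9.95 on the siTet2/3 array and 10.71 on the control array). Prkci, which encodes the atypical protein kinase C of the polarity complex, differed by 0.08, and the GTPase genes Rhoa, Cdc42 and Rac1 by at most 0.06 in either direction. Among 4 genes of membrane proteases and their inhibitors, only Prss8 passed 1.5-fold, beside 13.2% lower and 8.63% higher over all genes. Prss8 encodes prostasin, a protease that mice need for epidermal tight junction function. Its signal was 2.02-fold lower, 8.51 on the siTet2/3 array and 9.52 on the control array. At least 2-fold lower were 3.05% of all genes above the floor. St14, the gene of matriptase, which acts with prostasin, differed by -0.04.

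Adherens junctions, the neighbouring contacts built on cadherins, had 11 genes above the floor and 0 past 1.5-fold in either direction, beside 13.2% lower and 8.63% higher over all genes. The gene of E-cadherin, Cdh1, had 17.62 log2 units on the siTet2/3 array and 17.65 on the control array. The largest differences were those of Nectin3, a nectin adhesion gene, at -0.57 and of Ctnnd1, which encodes a catenin that binds cadherin tails, at 0.57. Ctnnd1 passed 1.5-fold after centring (0.63) or with the trend taken out (0.62), and was then the 1 gene of the list to do so. Of 8 transcription factor genes known to act on epithelial junction genes and above the floor, 1 passed 1.5-fold in each direction as measured. Over all genes, 13.2% were lower and 8.63% higher as measured. Ovol1 was at least 1.86-fold lower and Ovol2 at least 1.46-fold higher, each with 1 value below the floor. Once values below the floor were set to the floor, Ovol1 still passed 1.5-fold and Ovol2 did not. The background was then 11.8% lower and 6.96% higher. All values of both genes were below the negative-control floor. Snai2, a Snail family repressor, had 14.38 on the siTet2/3 array and 14.07 on the control array, and Grhl2, a Grainyhead-like activator, had 10.38 on the siTet2/3 array and 10.54 on the control array.

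**Figure D4:**
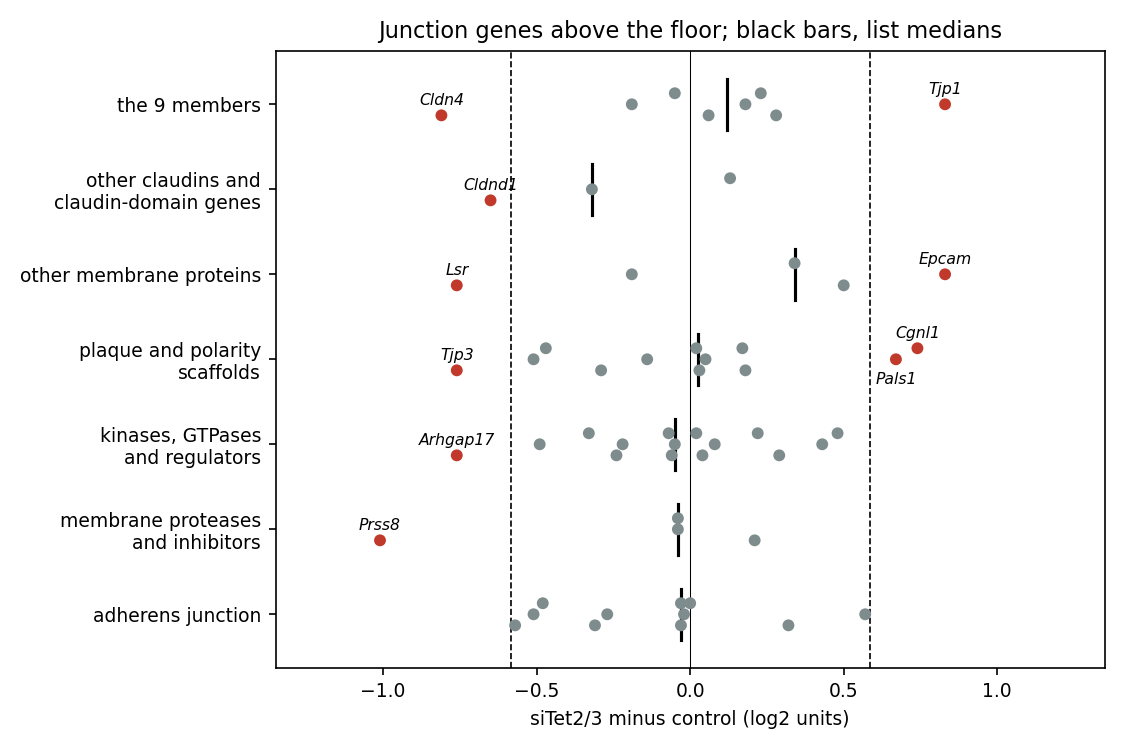
Difference, siTet2/3 minus control, in log2 units (horizontal axis) of each junction gene above the floor, by list; red points are past 1.5-fold (dashed lines) and named, black bars are list medians. Each of the first 4 lists, apart from the other claudins, has genes past the lines on both sides, and the adherens junction list has 0 as measured.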

How the data were processed

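RNA of cultured newborn rat keratinocytes was measured on 1 array per group (siTet2/3 and control, both with vitamin C), grouped by the genotype in the labels. The authors deposited 1 table of log2 signals per probe set with 24834 rows; the submitters' processing notes name RMA and the Transcriptome Analysis Console, and their versions, the build and the annotation are not given in the sources used. The upper end of 19.93 is higher than RMA usually gives, so folds are those of the deposited scale. A platform annotation table named 15049 probes, and the mean was taken for 10 genes with several probes; all 15049 entrez identifiers were in a RefSeq table of GRCr8. There were 0 columns of unknown samples.

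Differences of log2 values, siTet2/3 minus control, were taken with pandas 2.3.3 in Python 3.11.15. The floor was the 95th percentile of the higher value of chemoreceptor genes. A gene was above the floor if its higher value passed it, and was then counted as higher or lower where its 2 values, as measured, differed by 1.5-fold or more. With 1 value below the floor, a fold is a bound over the floor. Local scatter was a scaled median absolute deviation over 200 genes on each side in level. The steps were tested on simulated data with 2-fold changes and a fixed scatter smaller than the members' local scatter. That setting is easier than the data, so the test does not bear on the smaller differences given here. Alternatives were centring, removal of a lowess trend (fraction 0.3, statsmodels 0.14.6), the brightest probe, other floors and other limits. Members, lists and settings were chosen with earlier results of these data known. All members were named; of other lists, up to 5 genes per direction past 1.5-fold, or the largest difference where none passed. Other genes named beside them were chosen after their values were seen.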

Additional observations from a re-analysis of the deposited data

How the results depend on the processing

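No paired analysis was possible because each group has 1 array. Cldn4 stayed at least 1.5-fold lower and Tjp1 at least 1.5-fold higher under centring (-0.76 and 0.88) and removal of the trend on level (-0.77 and 0.88). The brightest probe and values raised to the floor (-0.81 and 0.83 under both) could not change these 2 differences. Each member has 1 probe, and both genes lay well above the floor. The counts of 1 lower and 1 higher also held at a lower fold limit, with no floor and with a floor 1 log2 unit higher. The floor settings could not remove either gene, since both lay above the stricter negative-control floor on both arrays. At a limit of 2-fold the counts were 0 lower and 0 higher, and at 3 local robust SDs 0 and 0. The differences of Cldn4 and Tjp1 are smaller than those limits. The members' median ranged from 0.06 (no floor, or the negative-control floor) to 0.18 (trend removed), and their mean was 0.06. Signal near the floor limits Cldn7, which has no usable fold, and signal under the negative-control floor limits Cldn3 and Cldn23.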
